A study of Ramazzottius varieornatus with 27 samples.

Results

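Whole-body RNA of the tardigrade Ramazzottius varieornatus taken 9 h after 500 Gy of gamma ray was compared with that of non-irradiated animals. These groups make up 6 of the 27 libraries of the series, 3 at 9 h and 3 controls, and were chosen by their labels alone. The other libraries were sampled at 4, 6, 12, 15, 18, 21 and 24 h, 3 at each time. Irradiated animals received the dose from a 60Co source and were then kept at 22 °C. Each library came from the total RNA of 30 animals. The series calls its replicates technical, so p-values measure only the spread between these samples. The controls form 1 group with no sampling time of their own, so time since handling cannot be told apart from irradiation. No genotype or strain is given in the labels.

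Gamma rays break DNA and make reactive oxygen species by splitting water, and cells answer with DNA repair enzymes, antioxidant enzymes and changes in the cell cycle. R. varieornatus is a terrestrial tardigrade that survives drying in an ametabolic state, anhydrobiosis, and is also known for its tolerance of radiation. The values are TPM per transcript, a share of reads corrected for transcript length, after a further scaling of libraries by TMM (a factor per library that aligns most transcripts).

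Of 14532 transcripts, 12820 reached 1 in 3 or more libraries and were tested with limma on log2(value + 1). A transcript was called when its Benjamini-Hochberg adjusted p was under 0.05 and its ratio of group means was over 2. None of the 13920 gene IDs matched the 23164 genes of the reference table (RefSeq, Rvar_4.0), and the deposited table does not pair IDs with names. Transcripts are therefore described by their level, their number of models and their values, and only a few are named.

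The library labelled 9 h replicate 1 stood apart. It had 9575 transcripts above 0, against 11805 and 12702 in 9 h replicates 2 and 3 and 13126, 13325 and 11556 in control replicates 1, 2 and 3. Of the tested transcripts, 3304 (25.8%) were at 0 in it, and 1301 and 684 in the other 9 h libraries. The methods name signs of adapter dimers in this library. It was not the shallowest library. For 10214 transcripts the values fell on whole multiples of the value of 1 read, which gave the relative depth of the libraries. Relative to control replicate 1, control replicates 2 and 3 had a depth of 0.825 and 0.352, and 9 h replicates 1, 2 and 3 a depth of 0.630, 0.193 and 0.995. This measure comes from TMM-scaled values and is no count of reads. By it 9 h replicate 1 was more than 3 times as deep as 9 h replicate 2. 9 h replicate 1 yet had more transcripts without a read, 2545 against 939 of the 10214. It also had few transcripts with 1 to 5 reads, 74 (0.965% of those with any read), where 9 h replicate 2 had 1279 (13.8%) and 9 h replicate 3 had 506 (5.16%). That was the lowest percentage of the 27 libraries, and 18 h replicate 2 came next at 2.43%. Of 7983 transcripts at 10 or more in both other 9 h libraries, 246 (3.08%) were at 0 in 9 h replicate 1. The same count, taken in each of the other 26 libraries against its own group, was 0 to 88 with a median of 7. The counts of calls and the named transcripts are therefore given with and without it. Preparation differed too: per the methods the 9 h libraries were amplified by 21 PCR cycles, the number for the controls is not given in the sources used here, and any difference in cycles cannot be told apart from irradiation.

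**Figure D1:**
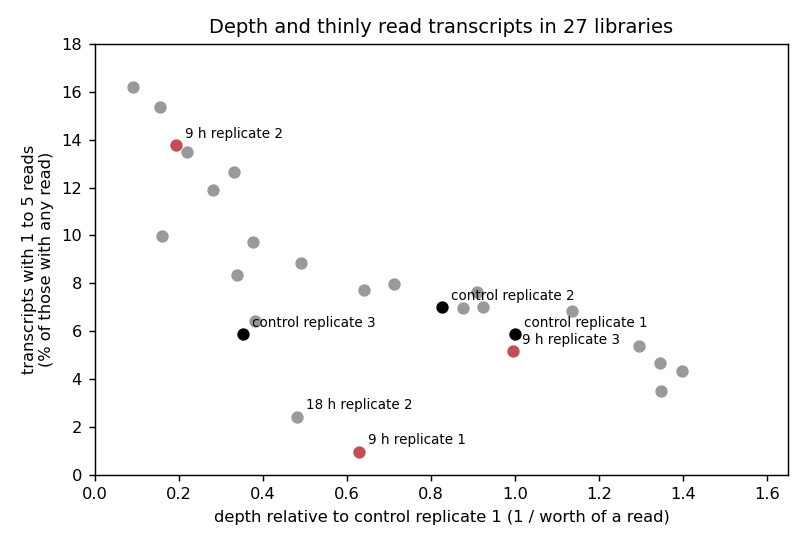
Percentage of transcripts with 1 to 5 reads, among those with any read, against depth relative to control replicate 1, with a point for each of 27 libraries (black control, red 9 h, grey other times). 9 h replicate 1 lies lowest, at 0.965% and a relative depth of 0.630, and 18 h replicate 2 next, at 2.43%.

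At 9 h, 679 transcripts (5.3%) were higher than in control and 942 (7.35%) were lower. When 9 h replicate 1 was left out, 839 (6.54%) were higher and 773 (6.03%) lower. With only the control and 9 h libraries in the fit the calls were 370 and 443, and 695 and 805 when 9 h replicate 1 was left out of that fit. The higher transcripts made up 41.9% of the calls with all libraries and 52% without that library. In bulk samples of whole animals, fewer cells of a type and less RNA per cell cannot be told apart. The higher transcripts rose by a median log2 fold change of 1.22, with the middle of the list between 1.08 and 1.41 and the largest at 5.46. The lower ones had a median of -1.66, the middle between -2.19 and -1.24 and the most extreme at -8.69. Leaving out 9 h replicate 1 made these medians 1.30 and -1.41. Folds over 4 were more frequent among the lower transcripts, 324 of 942 against 71 of 679, and folds over 10 numbered 102 and 29. Without the library they numbered 193 of 773 against 112 of 839, and 71 and 42. The 3 values at 9 h lay all above the 3 controls for 641 of the 679, where 17.7% of all tested transcripts did so, and all below for 880 of the 942, where 18.9% did so. The same libraries chose the transcripts, which raises these counts, so they are a description only.

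The balance of directions depended on the scaling of the libraries. The median log2 fold change of all tested transcripts was -0.11, and -0.03 without 9 h replicate 1. With the TMM factor undone, so that every library had the same sum, it was 0.02, and 0.13 without that library. The split was then 1068 higher and 628 lower (63% higher), and without 9 h replicate 1 it was 1263 higher and 462 lower (73.2% higher). The direction of no call turned. The 679 higher transcripts were all called with the factor undone, but only 628 of the 942 lower ones.

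Leaving out 9 h replicate 1 changed which transcripts were called. In both fits 571 were called higher and 535 lower, and none was called in opposite directions. Among the 407 called lower only with all libraries, 227 (55.8%) were at 0 in 9 h replicate 1. Their median values were 22.9, 22.2 and 22.9 in control replicates 1, 2 and 3, and 0, 8.98 and 10.9 in the 9 h libraries. The other 9 h libraries thus also lay below the controls at the median, but less far. The 268 called higher only without the library had medians of 17.9, 13.2 and 18.9 in control and of 14.6, 38.3 and 39.3 at 9 h, and 61 (22.8%) of them were at 0 in 9 h replicate 1. The 238 called lower only without it had medians of 91.8, 93.9 and 84.9 in control and of 82.5, 36.1 and 42.4 at 9 h. In both of these sets 9 h replicate 1 lay near the controls. The 108 called higher only with it had medians of 12.8, 11.3 and 10.9 in control and of 36.8, 24.3 and 21.0 at 9 h.

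**Figure D2:**
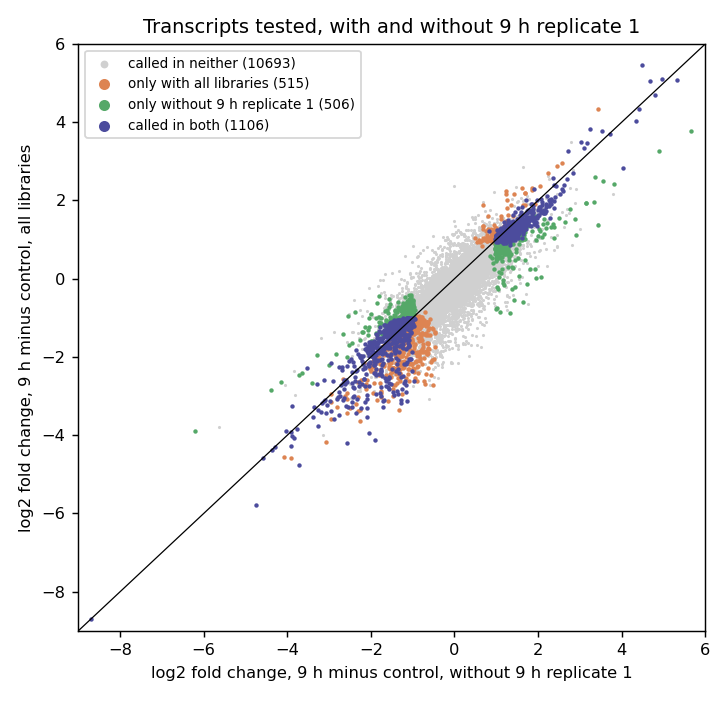
Log2 fold change of 9 h over control for each tested transcript with all libraries (vertical) against that without 9 h replicate 1 (horizontal), coloured by the fit that called it, with the line of equal values. The 1106 transcripts called in both fits lie on the same side of 0 in each, 515 were called only with all libraries, 506 only without 9 h replicate 1 and 10693 in neither.

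The calls made without 9 h replicate 1 were then read in that library, which had no part in choosing them, though the controls were shared. Of the 839 higher transcripts, 641 (76.4%) lay above all 3 controls in it, against 33.2% of all tested transcripts, and 62 lay below all 3. Of the 773 lower transcripts, 658 (85.1%) lay below all 3 controls, against 40.7% of all tested, and 51 lay above. The median change from the control mean was 0.81 in 9 h replicate 1, 1.34 in replicate 2 and 1.26 in replicate 3 for the higher transcripts. For the lower ones it was -1.10, -1.52 and -1.27. Since the same controls chose the lists, these shares are raised by the choice and the shares over all tested transcripts are no value for a list without change. They are given as a description only.

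Its spread was wider at every level. For transcripts with a mean of 20 to 100 in 9 h replicates 2 and 3, the difference of 9 h replicate 1 from their mean had an SD of 1.16 on the log2 scale, where replicates 2 and 3 differed from each other with an SD of 0.47. At 100 to 500 these were 0.71 and 0.34. Transcripts at 0 in 9 h replicate 1 made up 65.2% of those at 1 to 5, 25.2% at 5 to 20, 2.83% at 20 to 100 and none of the 209 at 500 and over. In a fit where limma gave each library a weight by its spread, 9 h replicate 1 had the lowest weight, 0.145, and 18 h replicate 2 the next, 0.285. That fit made 809 higher and 947 lower calls. The ratio of group means that a call needs was taken without weights, so 9 h replicate 1 kept its full part in that criterion. The fit with equal weights, the weighted fit and the fit without the library shared 569 of the 679 higher calls (83.8%) and 532 of the 942 lower ones (56.5%). With the factor undone as well, 569 and 414 were shared.

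Calls depended on the level of the transcript. Levels were taken as the mean over all 27 libraries. At 20 to 100, 428 of 5119 transcripts were higher (8.36%) and 345 lower (6.74%). In every other range more transcripts were lower than higher in the deposited scaling. At 500 and over, 7 of 242 were higher (2.89%) and 38 were lower (15.7%). In the fit without 9 h replicate 1 there were 51 lower (21.1%) and again 7 higher. With the factor undone 23 were lower and 10 higher, and without the library as well 30 were lower and 12 higher. The median change of these 242 transcripts was -0.18, -0.47 and -0.35 in 9 h replicates 1, 2 and 3. In the other ranges the direction depended on the scaling. Between 100 and 500 there were 98 higher and 153 lower as deposited, and 169 higher and 83 lower with the factor undone. Without 9 h replicate 1 it turned in the same way, from 112 higher and 184 lower to 201 higher and 105 lower. The lower ranges kept more lower than higher calls with the factor undone, but not when 9 h replicate 1 was left out as well. There were then 27 higher and 18 lower under 1, 87 and 51 at 1 to 5, and 180 and 84 at 5 to 20. Only at 20 to 100 (more higher) and at 500 and over (more lower) was the direction the same in all 4 fits. Below a level of 20, the lower calls rested most on 9 h replicate 1. At 1 to 5 they fell from 151 to 68 without it, and at 5 to 20 from 219 to 130. The higher calls went from 50 to 64 and from 89 to 120.

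**Figure D3:**
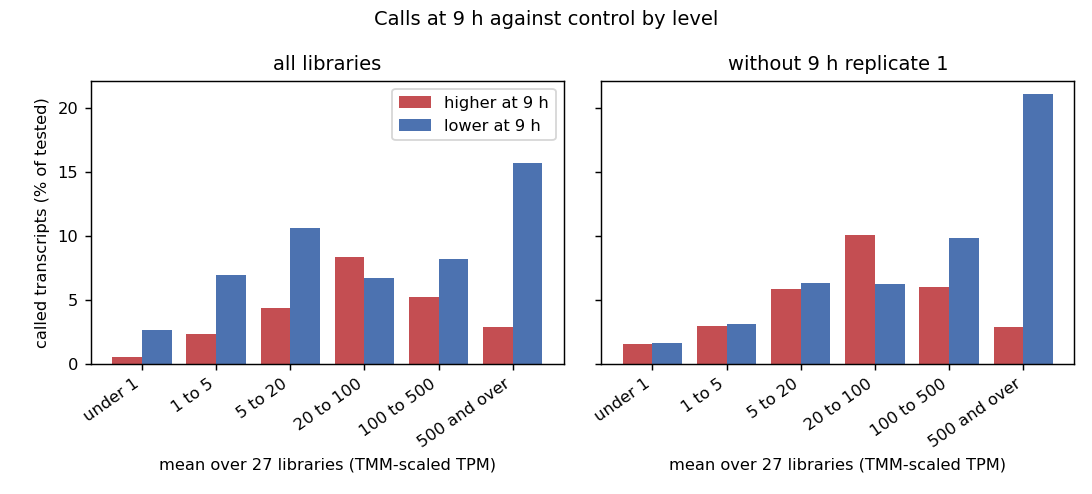
Bars give the percentage of tested transcripts called higher (red) or lower (blue) at 9 h in each range of the mean TMM-scaled TPM over 27 libraries, with all libraries at the left and without 9 h replicate 1 at the right. At 500 and over the lower calls reach 15.7% and 21.1% and the higher calls 2.89% in both. With the TMM factor undone, not drawn here, the direction turns between 100 and 500, and below 20 it turns when 9 h replicate 1 is left out too.

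The part of the summed signal held by the called transcripts was counted in each library. In control replicates 1, 2 and 3 the lower transcripts held 13.8%, 15.0% and 13.7% of the sum of all values, and in the 9 h libraries 6.01%, 5.66% and 6.23%. The higher transcripts held 2.32%, 1.91% and 2.63% in control and 5.54%, 7.14% and 6.62% at 9 h. The groups did not overlap, which the choice of the transcripts fixes. For a fixed list these shares do not depend on the TMM factor, which cancels within a library. The lists themselves were called on the scaled values and do depend on it. For the transcripts called in both fits the shares of the lower ones were 11.2%, 12.47% and 11.1% in control and 5.26%, 4.32% and 4.66% at 9 h, and those of the higher ones 2.07%, 1.68% and 2.39% and 4.82%, 6.60% and 6.10%. Most called transcripts were present in both groups. The median control mean was 22.3 for the higher transcripts and 45.6 for the lower ones, and the median 9 h mean was 54.5 and 15.3.

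Transcripts listed at 0 in all libraries of 1 group and at 1 or more in each library of the other were few. There were 5 at 0 in the 3 controls with a value of 1 or more in each 9 h library. Another 28 were at 0 in the 3 libraries at 9 h with a value of 1 or more in each control. The 28 had a median control mean of 4.11, and the highest was 455. With 9 h replicate 1 left out the counts were 15 and 38. From 4 h to 12 h, both irradiated, the corresponding counts were 6 and 29 of the same 12820 tested transcripts. Counts of this size were therefore not particular to 9 h against control. Each of the 5 was 1 of several models of its gene. They were g8602.t2, g10096.t2, g1164.t2, g7215.t2 and g263.t1, named after their values were seen, with 9 h means of 11.7, 5.46, 90.1, 30.6 and 7.97.

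Models of 1 gene share reads, and how reads were divided among them is estimated. The table held 551 genes with several models, of which 947 transcripts were tested and 108 called (11.4%). Of the 11873 transcripts of genes with 1 model, 1513 were called (12.7%). A called model occurred in 97 genes, and the sum over the gene's models was also called in 42 of them and not in 55. Over all genes, sums gave 668 higher (5.4%) and 963 lower (7.79%) of 12368 tested, and 831 (6.72%) and 786 (6.36%) without 9 h replicate 1.

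In 5 genes one model was called higher and another lower at 9 h. They were g11205, g8602, g2799, g5150 and g10086, named after their values were seen, and 4 of the 5 did so without 9 h replicate 1. With the factor undone g5150 no longer did so. In g11205 the values of model t1 were 95.4, 67.8 and 83.1 in control replicates 1, 2 and 3 and 0, 52.4 and 45.3 at 9 h. Those of model t2 were 0, 0 and 3.91 in control and 95.4, 40.8 and 43.9 at 9 h. The sum of both was 95.4, 67.8 and 87.1 in control and 95.4, 93.2 and 89.2 at 9 h, a log2 fold change of 0.16 (limma adjusted p = 0.436). Model t2 thus rose from near 0 while the gene's sum was not called. t1 remained above t2 in 9 h replicates 2 and 3, and only in 9 h replicate 1 was it at 0. Before 9 h, t2 was at 0 in all 4 h libraries and in 6 h replicates 1 and 2 (15 PCR cycles). In 6 h replicate 3 (21 cycles) t2 was at 53.3 and t1 at 40.2. In g8602 model t1 went from 6.44, 7 and 9.47 to 0 in all 9 h libraries, and model t2 from 0 in all controls to 20.3, 9.30 and 5.41. This was no plain change at 9 h, since t1 was already at 0 in all 4 h libraries. In 6 h replicates 1, 2 and 3, t1 was at 7.93, 4.13 and 0 and t2 at 0, 0 and 4.375. In g2799 model t1 went from 12.9, 22.999 and 17.0 to 0, 0 and 5.58, and model t2 from 0 in all controls to 12.3, 14.1 and 0.979. In 6 h replicates 1, 2 and 3 its t1 was at 7.51, 2.04 and 6.57 and its t2 at 1.03, 0 and 3.33. In the same libraries t2 of g10086 was at 2.38, 3.72 and 0, and t2 of g5150 at 6.895, 0 and 31.95. The part of the PCR cycles in these values was not tested. None of the 5 sums was called with all libraries. Those of g10086 and g5150 still rose and missed only the ratio of 2. Their log2 fold changes were 0.91 (limma adjusted p = 0.000569) and 0.77 (limma adjusted p = 0.0147). Without 9 h replicate 1 the sums of g10086 and g5150 were called higher.

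g12777, which codes for the Mn-dependent peroxidase AMNP, was higher at 9 h. Peroxidases break down hydrogen peroxide and related oxidants. Its values were 250, 291 and 257 in control replicates 1, 2 and 3, and 809, 542 and 587 at 9 h. These correspond to 1968, 1897 and 715 reads in control and 4017, 825 and 4612 reads at 9 h. All 3 values at 9 h lay above all controls, by a ratio of means of 2.43. The log2 fold change was 1.26 with an SE of 0.21 (limma adjusted p = 0.00019). Without 9 h replicate 1, its highest library, it was 1.09 (limma adjusted p = 0.00131). g12777 was already high before 9 h, with means of 700 ± 26.1 after 4 h and 598 ± 34.5 after 6 h, against 646 ± 143 after 9 h (SD, n = 3). The log2 difference of 9 h from 4 h was -0.14 ± 0.21 (SE) and that from 6 h was 0.09 ± 0.21, and neither was called (limma adjusted p = 0.701 and 0.845). After 9 h its mean was 351 ± 44.8 at 12 h and 181 ± 38.1 at 24 h. The difference of 9 h from 12 h, 0.86 ± 0.21, did not pass the adjustment (limma adjusted p = 0.0949), and that from 24 h, 1.83 ± 0.21, did (limma adjusted p = 6.67e-05). The group at 12 h did not overlap with that at 9 h.

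The other named transcripts were the most extreme in each direction among those called in both fits, without overlap of the groups, the single model of their gene and with a mean of at least 10 in the higher group. There were 477 such transcripts that rose and 454 that fell.

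g9628.t1 had values of 41.4, 0 and 18.5 in control replicates 1, 2 and 3 and of 213, 186 and 361 at 9 h. The groups were far apart, with a ratio of means of 12.7, but the controls differed widely among themselves. Its log2 fold change was 4.70 with an SE of 1.42 (limma adjusted p = 0.0168), and 4.79 without 9 h replicate 1 (limma adjusted p = 0.0340). The call was lost without control replicate 2, the one at 0, where the log2 fold change was 3.08 (limma adjusted p = 0.138), with library weights (4.01, limma adjusted p = 0.0625), with a pseudocount of 0.1 (limma adjusted p = 0.0550) and with only the control and 9 h libraries in the fit (limma adjusted p = 0.0709). Its 12 h mean was 400 ± 81.6 and its 4 h mean 8.55 ± 14.8 (SD, n = 3).

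g4607.t1 had values of 0, 10.1 and 30.5 in control and of 140, 74.0 and 86.2 at 9 h, a ratio of means of 7.39. Its log2 fold change was 3.79 with an SE of 1.08 (limma adjusted p = 0.0116), and 3.52 without 9 h replicate 1 (limma adjusted p = 0.0384). Here the call was lost without control replicate 1, where it was 2.38 (limma adjusted p = 0.0999), and with only the control and 9 h libraries in the fit (limma adjusted p = 0.0945). Its mean at 9 h, 100 ± 35.1, was the highest of all groups, and that at 12 h was 55.1 ± 33.7 (SD, n = 3). The values of neither transcript fell on whole reads, so their read counts were not recovered.

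g6186.t1 had values of 204, 430 and 132 in control, which correspond to 459, 800 and 105 reads. At 9 h they were 0, 2.30 and 20.5, or 0, 1 and 46 reads. The count of 0 in 9 h replicate 1 allows up to 3 reads, a value of 2.114, by counting error alone. Its log2 fold change was -5.78 with an SE of 0.97 (limma adjusted p = 0.000173), and -4.76 without 9 h replicate 1 (limma adjusted p = 0.00118). The low level was not shared by every later time. The 4 h mean was 365 ± 131, the 12 h mean 54.1 ± 14.2 and the 15 h mean 200 ± 54.5 (SD, n = 3), and 24 h was the only other time with a call against control.

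g4251.t1 had values of 149, 97.6 and 108 in control, from 1360, 737 and 348 reads, and of 0, 8.51 and 7.37 at 9 h, from 0, 15 and 67 reads. For the first of these, 3 reads would be a value of 0.521. Its log2 fold change was -4.77 with an SE of 0.84 (limma adjusted p = 0.000267), and -3.72 without 9 h replicate 1 (limma adjusted p = 0.00166). Unlike g6186.t1, it was called lower than control at each of the 8 times, with means from 2.44 to 8.73.

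**Figure D4:**
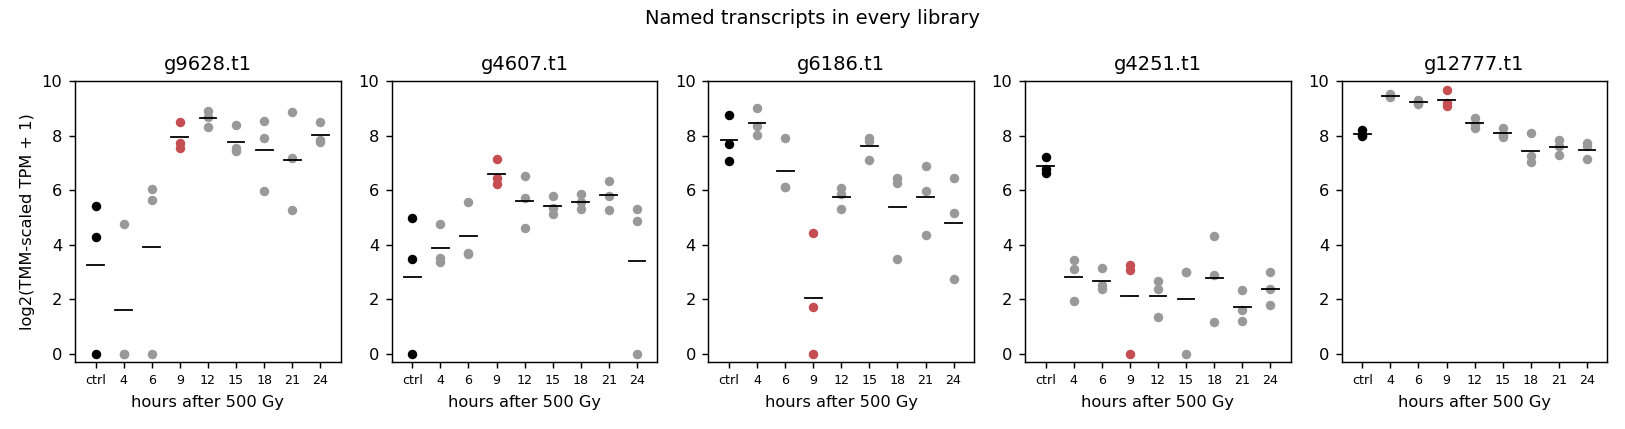
Log2(value + 1) of the 5 named transcripts in each library against hours after 500 Gy, with controls at the left (black), 9 h in red, other times in grey and the mean of each group as a bar. g12777 is highest at 4, 6 and 9 h, g6186.t1 has its lowest group mean at 9 h (values 0, 2.30 and 20.5), and g4251.t1 is low at every time after irradiation.

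Comparisons of other times with control use the same 3 controls and are therefore given side by side only. The 679 higher transcripts had a median log2 difference from control of 0.32, 0.71, 1.22, 1.01 and 1.09 after 4, 6, 9, 12 and 24 h. For the 942 lower ones the medians were -0.33, -0.67, -1.66, -1.22 and -1.12. The transcripts were chosen by their values at 9 h, so the size at that time is not set against the others. At 6 h the libraries differed in PCR cycles within the group. The transcripts called higher without 9 h replicate 1 had a median of 0.53 and 0.59 in 6 h replicates 1 and 2 (15 cycles) and of 0.93 in 6 h replicate 3 (21 cycles). The lower ones had medians of -0.42, -0.52 and -0.98. In both lists 6 h replicate 3 lay nearest to the 9 h libraries, and the part of the PCR cycles in this was not tested. The controls differed too: for the higher list, control replicates 1, 2 and 3 lay at 0.09, -0.28 and 0.22 from their own mean.

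**Figure D5:**
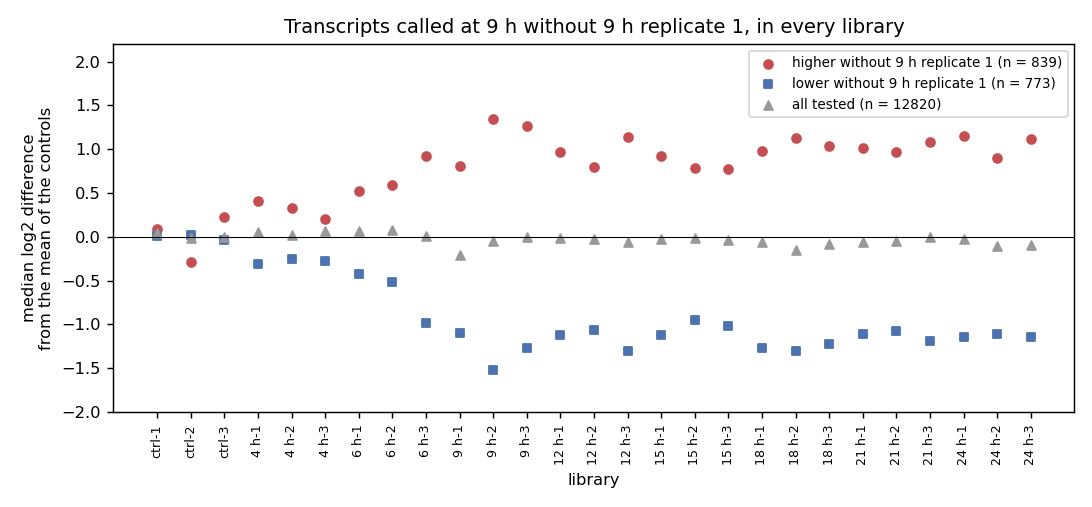
Median log2 difference from the mean of the controls in each of 27 libraries, for the 839 transcripts called higher (red circles) and the 773 called lower (blue squares) at 9 h without 9 h replicate 1 and for all 12820 tested (grey triangles). For the higher list 6 h replicates 1 and 2 lie at 0.53 and 0.59 and 6 h replicate 3 at 0.93, and the libraries from 12 h to 24 h lie between 0.78 and 1.15.

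A comparison of 12 h with 4 h shares no library with that of 9 h with control. Both came from 1 fit that gives each transcript the same spread, so their calls are not independent. How far this raises the shared calls was not tested. It called 175 transcripts higher (1.37%) and 454 lower (3.54%). Of the 679 higher at 9 h, 115 (16.9%) were also called higher at 12 h than at 4 h, and 9 were called lower. Of the 942 lower at 9 h, 199 (21.1%) were also called lower and none higher. The median log2 difference of 12 h from 4 h was 0.69 for the higher list and -0.82 for the lower list, against -0.09 for all tested transcripts. The difference was positive for 88.7% of the higher list, 4.56% of the lower list and 43.7% of all tested. For the calls made without 9 h replicate 1, 122 of 839 (14.5%) were also higher, 10 were lower, and 199 of 773 (25.7%) were also lower and none higher. With the TMM factor undone in both comparisons the balance turned, to 255 of 1068 higher transcripts (23.9%) also called higher and 135 of 628 lower ones (21.5%) also called lower, where 2.61% and 2.74% of all tested transcripts were called. The 4 h libraries had 15 PCR cycles and the 12 h libraries 21, so cycles and time cannot be told apart here either.

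Between 9 h and 12 h few transcripts were called. None was higher at 12 h, and 8 were lower (0.0624%), by log2 differences of -1.56 to -1.14. limma gave 1850 transcripts (14.4%) at an unadjusted p under 0.05 in either direction. The 3 libraries at 9 h lay above the 3 at 12 h for each of the 8. The same libraries chose these transcripts, which favours such a lack of overlap, so it is a description only. Control means of the 8 ranged from 15.1 to 462, their 9 h means from 47.0 to 1680 and their 12 h means from 19.0 to 723. Of the 8, 4 had been called higher at 9 h than in control and 4 had not been called. The count was 3 when 9 h replicate 1 or 9 h replicate 2 was left out, and 66 when 9 h replicate 3 was.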

How the data were processed

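RNA of whole animals (30 per sample) was sequenced in 27 libraries of 9 groups, and the 3 control and the 3 libraries taken at 9 h are described here. Per the methods, the authors aligned reads to coding sequences with Bowtie2 and estimated abundance with RSEM. The deposited values are a signal, TPM per transcript multiplied by a TMM factor for each library. The authors tested counts with DESeq2. Counts, the authors' fold changes and their enrichment terms were not used here.

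Values were taken as log2(value + 1), so that fold changes of low transcripts are understated, and fitted with limma 3.58.1 in R 4.3.3 (means of 9 groups over 27 libraries, trend, Benjamini-Hochberg adjustment). The fit was also run on simulated data with a normal spread. That simulation did not model the excess zeros of 9 h replicate 1, so it is no check of the calls made here. An exact permutation test of 3 against 3 cannot go below 0.1 (two-sided) and was not used. The worth of 1 read in each library was recovered from the steps of low values, and 98.0% to 100% of the values of 10214 transcripts were whole within 0.2 reads. These transcripts were kept by the same limit of 0.2 reads, so the percentage does not check the recovery. Relative lengths were taken only where such steps existed. No absolute depth follows from this, and intervals from reads cover counting error only. A length correction was void, since 45.1% of the transcripts called higher had a length (at least 80% were required). Among all tested transcripts 76.8% had a length, and 83.8% of those called lower. The limit thus falls mostly on the transcripts called higher, and the reason for this was not tested.

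Transcripts were named by a rule on size, overlap and number of models, at most 2 that rose and 2 that fell, beside g12777 and small counts. The members and lists were chosen with earlier results of these data known. Alternatives covered the pseudocount, the filter, the TMM factor, the samples in the fit, library weights, the fold threshold, left-out libraries, a replicate block and gene sums. The 3 libraries of 9 h taken singly, the calls of 12 h against 4 h for transcripts chosen without 9 h replicate 1, and leaving out 9 h replicate 1 with 18 h replicate 2 were added after seeing the data. Python 3.11.15 with matplotlib 3.10.9 was used to draw the figures.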

Additional observations from a re-analysis of the deposited data

Results flagged for a closer look

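Levels of 8 transcripts were lower at 12 h than at 9 h in limma (adjusted p under 0.05 and a ratio over 2), and none was higher. They stand out because the effect against control differed between neighbouring times in a test of that difference itself. Since both times are set against the same controls, the controls cancel in this difference. The 8 had 9 h means of 47.0 to 1680 and 12 h means of 19.0 to 723. The libraries did not overlap, which is a description only, since the same libraries chose the 8. The count rose to 66 without 9 h replicate 3 and fell to 3 without either other 9 h library.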

How the results depend on the processing

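Of 88 alternative counts of calls, 72 stayed within 1.5 times the reported value and 16 moved further. None of the directions of g12777 or the 4 other named transcripts turned, and g12777 kept its call in 15 of 15 alternatives (log2 fold change 1.09 to 1.44). With the TMM factor undone, transcripts higher and lower at 9 h numbered 1068 and 628, those without 9 h replicate 1 1263 and 462, gene sums 1079 and 641, and those also called at 12 h against 4 h 255 higher and 135 lower. With only control and 9 h in the fit the calls were 370 and 443, and with no fold threshold 1841 and 1620. Each 9 h library alone, chosen after seeing the data and assumed to vary like the other groups, gave 1814 (replicate 1), 609 (replicate 2) and 295 (replicate 3) lower calls and 716, 724 and 565 higher ones. Leaving out 9 h replicate 1 and 18 h replicate 2 together, also added later, gave 870 and 844. Leaving out single libraries gave 459 to 839 higher and 650 to 1172 lower calls, 607 to 938 and 618 to 742 for the lists without 9 h replicate 1, 587 to 831 and 786 to 1163 for gene sums, 97 to 125 and 171 to 233 for the transcripts also called at 12 h against 4 h, and 3 to 66 between 9 h and 12 h.

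Samples with the same replicate number did not deviate together (correlations of -0.0289 to 0.0045 over transcripts), so they share only a number. With the replicate block the calls were 682 higher and 932 lower, 845 and 732 without 9 h replicate 1, 113 and 199 also called at 12 h against 4 h, and 6 between 9 h and 12 h. Depth limits low transcripts most in 9 h replicate 2, where 1 read at the median length is a value of 0.406, against 0.0784 in control replicate 1. The removal of a length trend per library was not run, because lengths were recovered for 45.1% of the transcripts called higher, against 83.8% of those called lower.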

Other observations

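Gene IDs that follow each other in number were called the same way more often than all genes, as a count with no test. Of 557 higher transcripts of genes with 1 model whose next ID was tested, 47 (8.44%) had a next ID that was also higher, against 5.21% of all such transcripts. For the lower ones this was 83 of 769 (10.8%) against 7.53%. Without 9 h replicate 1 it was 80 of 695 (11.5%) against 6.48% for the higher ones and 68 of 654 (10.4%) against 6.30% for the lower ones. Whether consecutive numbers are neighbours in the genome was not tested.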
